A study of Mus musculus with 3 samples.

Results

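The proximal part of mouse chromosome 12 between 18000000 and 25000000 bp of build mm9 was examined in proliferating C2C12 myoblasts for 2 chromatin features, KAP1 binding and trimethylation of histone H3 at lysine 9 (H3K9me3). The interval is a stretch of band 12qA1 described as segmentally duplicated. It was chosen by position with its density in these data already known, and a call belonged to it when its midpoint fell inside. It held 834 of the 39526 H3K9me3 regions in the deposited list and 81 of the 19549 KAP1 peaks. C2C12 is an established myoblast line of C3H origin, grown here in medium with serum before any induction of differentiation. There was 1 chromatin immunoprecipitation library per antibody and no replicate, so nothing below carries a spread between replicates and no p-value is given. The library made without antibody is not analysed here. Read depth is unknown, so a missing call may reflect depth. Intervals given with counts and shares are 95% intervals for counting error over calls, and neighbouring calls are not independent of one another.

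H3K9me3 is a mark of silent chromatin. KRAB zinc finger proteins recognise specific DNA sequences, many of them in transposable elements, and recruit the corepressor KAP1 (TRIM28) to them. KAP1 in turn recruits the methyltransferase SETDB1, which deposits H3K9me3. Segmental duplications are long blocks of DNA present in several near-identical copies. A short read from such a block can match more than 1 copy, so where an aligner puts that read affects which copies receive a call. How reads with several matches were handled is not given in the sources used here. No mm9 sequence was used, so the duplicated nature of the interval was not examined directly, no sequence is shown and calls are named by position.

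The interval was far denser in H3K9me3 regions than the rest of chromosome 12. It held 119 regions per Mb (interval 111 to 128), against 11.0 per Mb (interval 10.4 to 11.6) over the other 111 Mb of the chromosome covered by calls. The ratio was 10.8 (interval 9.91 to 11.8). Its 7 Mb thereby contained 40.5% of all H3K9me3 regions of chromosome 12. At the density of the rest of the chromosome, 77.0 regions would have fallen there. Set against all other chromosomes, which averaged 15.2 regions per Mb, the ratio was 7.83 (interval 7.30 to 8.39). In bases the excess was smaller, because the regions were narrower: they covered 575 kb, or 8.21% of the interval, against 1.11% of the rest of chromosome 12, a ratio of 7.38.

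By number of regions the interval stood above every other stretch of its length that was counted. Among 2496 windows of 7 Mb that did not touch it, taken in steps of 1 Mb over all chromosomes, the median held 95 regions and the highest, from 61 to 68 Mb on chromosome 13, held 570. By bases in H3K9me3 regions, 1 window exceeded it, the one from 17 to 24 Mb on chromosome 17, with 590 kb. These windows overlap one another, and the interval was proposed with its density known, so the ranks are a description.

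KAP1 peaks were only moderately denser. The interval held 11.6 KAP1 peaks per Mb (interval 9.19 to 14.4) and the rest of chromosome 12 held 6.38 per Mb (interval 5.92 to 6.87), a ratio of 1.81 (interval 1.42 to 2.28). When length was counted only as 100 kb bins with a call of either list, the ratio was 1.21 (interval 0.951 to 1.53), so the excess was not distinguishable from 1 under that measure. Of the 2496 other windows of 7 Mb, 161 (6.45%) held at least as many KAP1 peaks as the 81 found here. For every KAP1 peak the interval had 10.3 H3K9me3 regions, against 1.72 in the rest of chromosome 12 and 2.00 on all other chromosomes. The number was also high in the H3K9me3-dense stretches described below. It was 8.27 from 65 to 67 Mb on chromosome 13 and 7.91 from 22 to 23 Mb on chromosome 17.

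**Figure D1:**
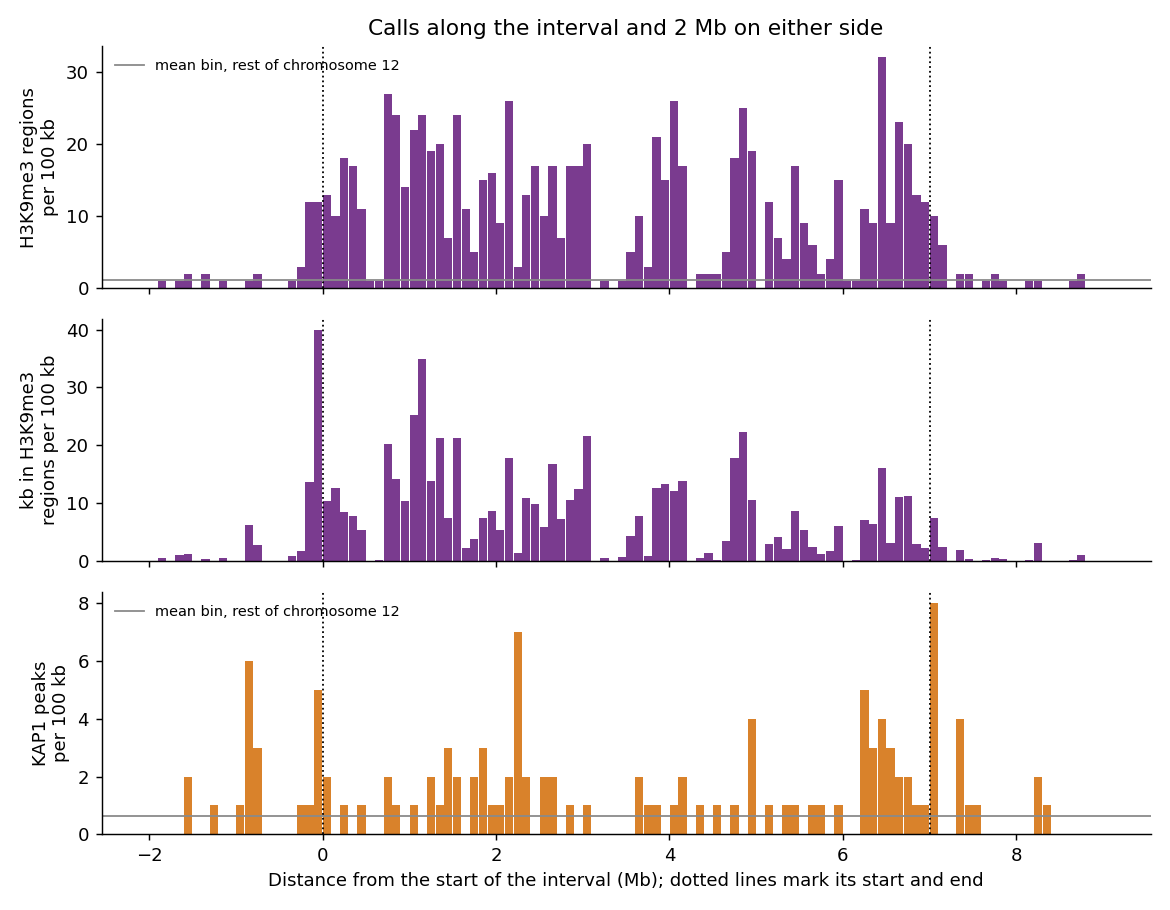
H3K9me3 regions (top), kb in H3K9me3 regions (middle) and KAP1 peaks (bottom) per 100 kb bin, against the distance in Mb from the start of the interval. Dotted lines mark its start and end, and grey lines the mean bin of the rest of chromosome 12 (1.10 regions and 0.638 peaks). H3K9me3 counts stay well above the grey line across most of the interval and for 200 kb past either side. Farther out they fall to near it. KAP1 counts are low and uneven.

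Borders were sought in 100 kb bins. A bin was called dense when it held at least 5 times the mean bin of the rest of chromosome 12, which was 1.10 regions, so that 6 or more regions were needed. Of the 70 bins of the interval 49 were dense, with a median of 11.5 regions over all 70, whereas 11 of the 1113 bins of the rest were. Joining dense bins across up to 2 bins that were not dense gave 3 runs, from 17.8 to 21.1 Mb, from 21.6 to 22.2 Mb and from 22.7 to 25.2 Mb. They contained 816 of the interval's 834 H3K9me3 regions (97.8%) and 79 of its 81 KAP1 peaks. The rule picks bins rich in H3K9me3, and the runs span most of the interval's length, so high shares were set in advance. By the limits of these runs, the domain reached past both limits of the interval, by 200 kb on either side.

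By number of regions the proximal edge was steep, and counts declined toward the distal edge from 24.6 Mb on. On the proximal side the count was 3 regions in the bin from 17.7 to 17.8 Mb and 12 in the next, and the 1 Mb before 17.8 Mb held 8 regions. On the distal side the bins from 24.6 Mb on held 23, 20, 13, 12, 10, 6 and 0 regions in order of position. The bins that start at 24.4 and 24.5 Mb held 32 and 9, so the decline depends on where the series starts. In kb covered it was uneven, with 2.30 kb in the bin from 24.9 Mb and 7.55 kb in the next. The 1 Mb after 25.2 Mb held 9 regions. Between these edges, over 7.4 Mb, stood 874 regions, or 42.5% of those on chromosome 12. Elsewhere on the chromosome 5 runs met the same rule, of which 4 were single bins and the longest spanned 0.5 Mb.

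The last bin before the proximal limit, from 17.9 to 18 Mb, had 39.8 kb in H3K9me3 regions and the one before it 13.7 kb, with 12 regions each. Between 17.8 and 18 Mb, 24 regions covered 53.5 kb, and 6 of them were at least 3 kb wide. The widest H3K9me3 region of the 17.8 to 21.1 Mb run lay there, at 17927894 to 17938051 (10158 bp, score 1040), and it held 1 KAP1 peak. That region falls outside the interval by its midpoint and is not counted among the 834.

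Inside the domain the marking was broken by stretches without calls. The longest with no call of either list ran from 21074632 to 21257436 (183 kb), followed by 18517401 to 18695717 (178 kb) and 21257950 to 21419035 (161 kb). The first and the last of these are separated by a short H3K9me3 call and lie in the break between the first and the second run. In all, 17 stretches of 50 kb or more had no H3K9me3 region and together made up 27.8% of the interval. Gaps in the assembly and sequence to which reads cannot be assigned also give stretches without calls, and their part here was not tested.

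The 3 runs differed in the make-up of their calls. The first run, 3.3 Mb long, held 479 regions (145 per Mb) with a median width of 521 bp, and 12.4% of its length was covered. The short second run held 92 regions (153 per Mb) with a median width of 448.5 bp and 10.1% covered. The third, 2.5 Mb long, held 285 regions (114 per Mb) with a median width of 342 bp and 6.26% covered. Regions of 3 kb or more numbered 24 in the first run, 6 of them before the interval's start, 1 in the second and 3 in the third. Broad marking thus lay mostly in the run nearest the centromere. By single Mb within the interval, the median width lay between 423 and 556 bp from 18 to 23 Mb and was 284.5 bp from 23 to 24 Mb and 312 bp from 24 to 25 Mb.

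The bins with most regions were spread over the domain. The bin from 24.4 to 24.5 Mb held 32 regions in 16.0 kb, and the bin from 18.7 to 18.8 Mb held 27 in 20.2 kb. Those from 20.1 to 20.2 Mb and from 22 to 22.1 Mb held 26 each, in 17.8 kb and 12.1 kb, and the one from 22.8 to 22.9 Mb held 25 in 22.3 kb. By kb in H3K9me3 regions the order was different, with 34.9 kb from 19.1 to 19.2 Mb and 25.2 kb from 19 to 19.1 Mb.

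The H3K9me3 regions of the interval were narrow and closely spaced. Their median width was 444 bp (interval 406 to 479, interquartile range 232.5 to 834), against 575 bp (interval 547 to 605) in the rest of chromosome 12. Widths ran from 53 to 6226 bp. Regions under 200 bp made up 19.3% (161 regions), against 13.2% elsewhere on the chromosome, and regions of 3 kb or more made up 2.52% (21 regions), against 6.87%. When regions within 1 kb were merged, the ratio of the median widths moved from 0.772 to 0.887 (interval 0.766 to 1.03), so the difference in width was no longer distinguishable from none. The deposited scores, which follow width in this list, had a median of 44 in the interval and 49 in the rest of the chromosome.

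Most of the 5 widest regions held no KAP1 peak. They lay at 19090903 to 19097128 (6226 bp), 19106843 to 19112620 (5778 bp), 22794858 to 22800053 (5196 bp), 18155999 to 18160565 (4567 bp) and 19086040 to 19090604 (4565 bp). Only the last overlapped a KAP1 peak, at 19090214 to 19090819. The first came within 0.084 kb of that same peak, and the others stood 16.0, 52.3 and 46.3 kb from the nearest. The first, the second and the last of them stood close together near 19.1 Mb.

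Neighbouring midpoints were a median of 3.03 kb apart (interval 2.74 to 3.34, interquartile range 1.595 to 7.86), against 40.4 kb (interval 34.5 to 46.2) in the rest of chromosome 12. Distances under 5 kb made up 64.8% of the 833 neighbour distances, against 21.4% elsewhere on the chromosome. The mean distance of 8.37 kb was well above the median, and the standard deviation was 2.17 times the mean, so close groups of calls alternated with long gaps.

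KAP1 peaks showed no such crowding. Their median spacing was 57.8 kb (interval 21.9 to 89.2), against 56.8 kb (interval 45.8 to 71.9) in the rest of chromosome 12, although the density was higher. Spacing under 5 kb was found for 17.5% of neighbours in the interval and 30.5% elsewhere on the chromosome, and 33 of the 81 peaks (40.7%) had another within 10 kb, against 52.4% elsewhere. The peaks were somewhat narrower, with a median of 558 bp (interval 506 to 587) against 628 bp (interval 611 to 646). Their scores were similar at the middle of the range, with medians of 103.91 and 102.145. The highest in the interval was 487.95 and 4 of 81 peaks reached the top 10% of the whole list, which began at 291.

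**Figure D2:**
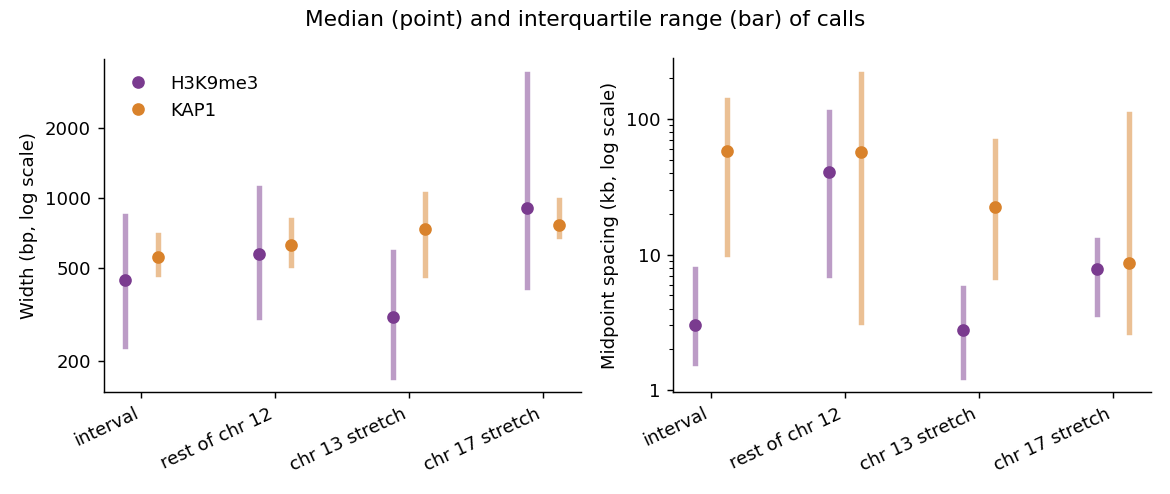
Width in bp (left) and distance between neighbouring midpoints in kb (right), both on log scales, for H3K9me3 regions (purple) and KAP1 peaks (orange), with medians as points and interquartile ranges as bars. The H3K9me3 spacing of the interval, a median of 3.03 kb, lies far below the 40.4 kb of the rest of chromosome 12 and near the 2.76 kb of a dense stretch of chromosome 13, while KAP1 spacing in the interval and in the rest of chromosome 12 overlaps.

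Repeated units of fixed length would place calls at a recurring distance. All pairs of H3K9me3 midpoints in the interval between 10 and 400 kb apart, 40109 pairs, were counted in 390 classes of 1 kb, and each class was set against the mean of the classes within 10 kb on either side. The highest class, 317 to 318 kb, held 110 pairs where its neighbours averaged 88.5, a ratio of 1.24 (interval 1.02 to 1.499). The next were 379 to 380 kb (1.24), 358 to 359 kb (1.24), 79 to 80 kb (1.22) and 175 to 176 kb (1.22). The central 90% of classes had ratios from 0.858 to 1.15. Of the 390 classes 5 had an interval that stayed above 1. In the rest of chromosome 12, with fewer pairs, the highest class reached 1.91 and 7 of 390 had such an interval. A unit of 79.5 kb, the shortest of these distances, would also raise its multiples. The ratio was 0.942 at 2 times that length (159 to 160 kb), 0.945 at 3 times (238 to 239 kb) and 1.05 at 4 times (318 to 319 kb). For a unit elsewhere in the 79 to 80 kb class, the multiples can fall in neighbouring classes. Their ratios were 0.954 at 2 times, 0.985 and 0.998 at 3 times, and 0.943, 1.24 and 0.958 at 4 times. The 1.24 is the highest class, 317 to 318 kb. No regular series of distances was seen between 10 and 400 kb.

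**Figure D3:**
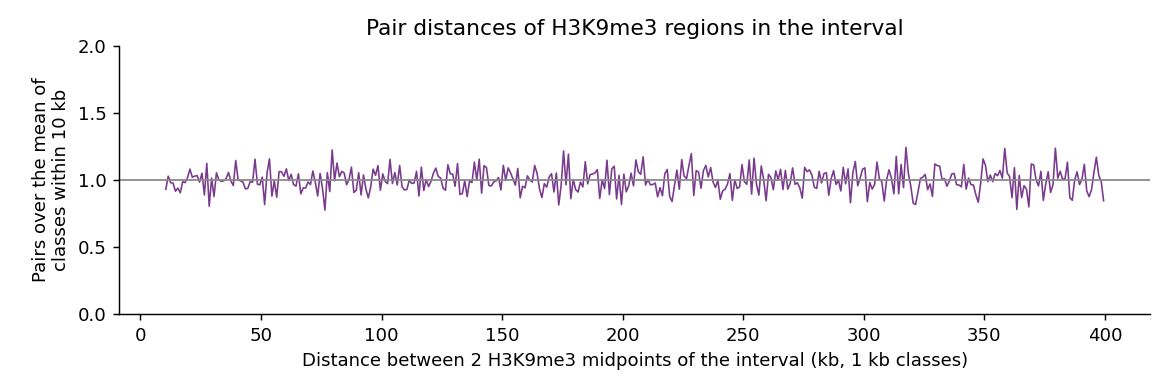
Number of pairs of H3K9me3 regions in each 1 kb class of distance, divided by the mean of the classes within 10 kb, against the distance in kb. The line stays near 1 from 10 to 400 kb, with a highest value of 1.24 at 317 to 318 kb and no regular series of peaks.

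Copies of a longer pattern were looked for as runs of 3 neighbouring regions whose 2 midpoint distances recurred elsewhere in the interval within 20 bp. Such runs took in 84 of the 834 regions (10.1%, interval 8.21 to 12.3), and 0 of 1223 in the rest of chromosome 12 (0%, interval 0 to 0.313). Chance matches become more frequent as calls stand closer and as more runs are compared, and their part was not tested. In a stretch of chromosome 13 with a like spacing, 65 to 67 Mb, 24 of 339 regions (7.08%, interval 4.80 to 10.3) matched. That stretch had 337 runs to compare and the interval 832, and whether it holds copied sequence itself was not examined. These shares are therefore not like for like. When the widths had to recur as well, 0 of the 834 regions remained in a matched run, which allows up to 0.458% by the Wilson interval. The 15 pairs of runs lay between 28.8 kb and 4442 kb apart, and 1 pair was less than 500 kb apart.

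In 1 case 4 neighbouring regions recurred, singled out after the values were seen. The regions from 23421008 to 23425113 had midpoint distances of 1541, 1308.5 and 1001.5 bp. Those from 24610837 to 24614910, 1190 kb further on, had 1549.5, 1293.5 and 1021.5 bp. Their widths were unlike, 152, 112, 443 and 358 bp in the first and 207, 360, 1299 and 212 bp in the second. Among the 48 regions of the interval of 2 kb or more, 1 pair had the same width to the base, likewise singled out afterwards. It consisted of 18039666 to 18042778 and 18136626 to 18139738, both 3113 bp wide, with scores of 310 and 296 and midpoints 97.0 kb apart, and neither held a KAP1 peak. In the rest of chromosome 12, 0 pairs among 145 regions of that size shared a width. The possible pairs numbered 1128 in the interval and 10440 in the rest. Among regions of 1 kb or more, equal widths occurred in both, with 9 pairs among 166 regions in the interval and 19 among 340 in the rest. Per 1000 possible pairs this was 0.657 in the interval and 0.330 in the rest, and the cause of the difference was not tested.

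KAP1 and H3K9me3 coincided at 43 of the 81 KAP1 peaks. A peak was counted when it shared at least 1 bp with an H3K9me3 region. The share was 53.1% (interval 42.3 to 63.6), against 42.4% (interval 38.8 to 46.1) in the rest of chromosome 12 and 44.1% over all chromosomes, and the intervals overlapped. Against the upper 50% of H3K9me3 regions by score the order turned, with 34.6% (interval 25.1 to 45.4) in the interval and 37.2% (interval 33.7 to 40.8) in the rest. Of the 43 peaks, 35 were covered over at least 50% of their length and 20 over all of it. H3K9me3 regions covered 8.21% of the interval and 1.11% of the rest of chromosome 12, and the part of this coverage in the shares was not tested. For the 38 other peaks the median gap to H3K9me3 was 2.58 kb, against 24.5 kb in the rest of the chromosome, and the largest gap was 41.7 kb. The median spacing of H3K9me3 regions was 3.03 kb in the interval and 40.4 kb in the rest, and its part in these gaps was not tested.

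In the interval low-scoring and high-scoring KAP1 peaks overlapped H3K9me3 about equally often. Peaks scoring below 106.12, the median of the whole KAP1 list, overlapped H3K9me3 in 23 of 43 cases (53.5%, interval 38.9 to 67.5), and the others in 20 of 38 (52.6%, interval 37.3 to 67.5). In the rest of chromosome 12 the shares were 26.8% (interval 22.6 to 31.5) below that score and 59.6% (interval 54.3 to 64.7) at or above it. Among low-scoring peaks the share was thus higher in the interval than in the rest, with intervals that did not overlap. Among the others it was lower, with intervals that did. The median score in the interval was 104.72 (interval 91.46 to 116.58) with H3K9me3 and 101.565 (interval 90.24 to 116.85) without. In the rest of the chromosome it was 145.3 (interval 126.53 to 155.3) with and 90.52 (interval 87.3 to 94.42) without.

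Among H3K9me3 regions, KAP1 was scarce. Only 40 of the 834 regions (4.80%, interval 3.54 to 6.47) held a KAP1 peak, against 200 of 1223 (16.4%, interval 14.4 to 18.5) in the rest of chromosome 12 and 15.4% over all chromosomes. Per Mb, H3K9me3 regions without KAP1 were 12.3 times denser than in the rest of the chromosome (interval 11.2 to 13.5) and those with KAP1 3.18 times (interval 2.204 to 4.48). Of the 834 regions 794 held no KAP1 peak.

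The share was also low within classes of equal width. Among regions of 3 kb or more, 5 of 21 (23.8%, interval 10.6 to 45.1) held KAP1 in the interval and 62 of 84 (73.8%, interval 63.5 to 82.0) in the rest of chromosome 12. From 1000 to under 3000 bp the shares were 10.3% (interval 6.37 to 16.4) and 28.5% (interval 23.3 to 34.3), and from 500 to under 1000 bp 3.35% (interval 1.63 to 6.75) and 9.39% (interval 6.80 to 12.8). Under 200 bp they were close, at 3.73% (interval 1.72 to 7.89) and 3.70% (interval 1.71 to 7.84). For the 16 broad regions without KAP1 the median gap to a KAP1 peak was 28.0 kb, and for 13 of them it exceeded 10 kb. In the rest of chromosome 12 there were 22 such regions, with a median gap of 52.1 kb, and 16 of them exceeded 10 kb. A low share among broad regions was not particular to the interval. In the chromosome 17 stretch described below, 25 regions were 3 kb or wider and 6 regions of any width held KAP1. At most 6 of those 25 broad regions thus held KAP1.

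**Figure D4:**
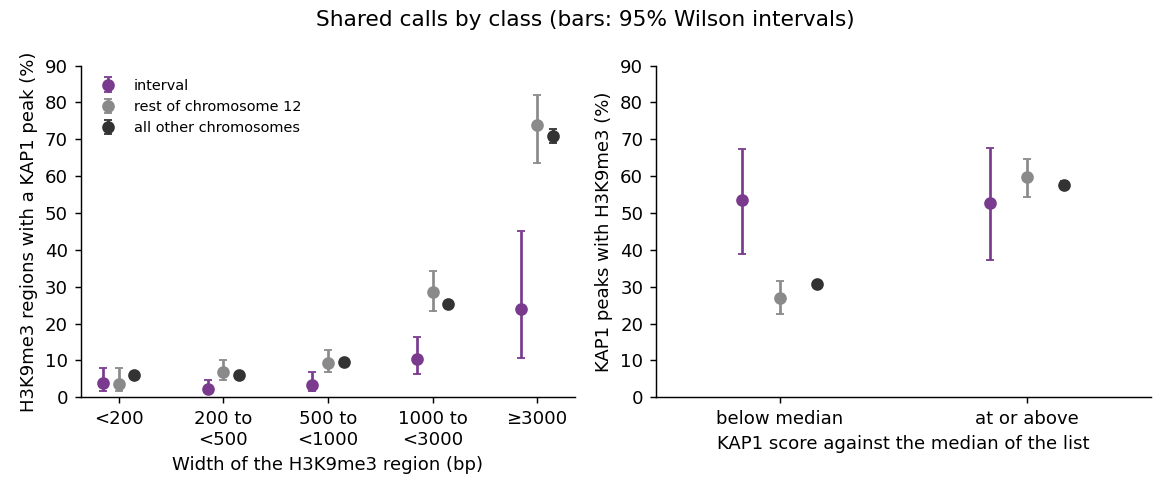
Share of H3K9me3 regions with a KAP1 peak by width of the region (left) and share of KAP1 peaks with H3K9me3 by KAP1 score (right), in percent, for the interval (purple), the rest of chromosome 12 (grey) and all other chromosomes (black), with 95% Wilson intervals. In the widest class 23.8% of the interval's regions hold KAP1, against 73.8% in the rest of chromosome 12, and the interval's KAP1 peaks overlap H3K9me3 in 53.5% and 52.6% of cases on either side of the median score.

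Regions with several KAP1 peaks were rare. In the interval 38 regions held 1 KAP1 peak, 1 held 2 and 1 held 3, whereas 58 of the 200 in the rest of chromosome 12 held 2 or more. The region with 3 lay at 19411167 to 19415145, was 3979 bp wide and had a score of 499. It contained the highest-scoring KAP1 peak with H3K9me3 of the interval, at 19412003 to 19412771, with a score of 309.49 and all of its length covered. The region with 2, at 24768849 to 24769129, was only 281 bp wide.

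The next KAP1 peaks with H3K9me3 by score were at 24613107 to 24614333 (score 236.64, 97.8% covered), 23415732 to 23416663 (217.24, 100% covered), 19806556 to 19807444 (204.68, 85.6% covered) and 18878007 to 18878686 (181.43, 100% covered). They stood in different parts of the domain. Among KAP1 peaks without H3K9me3 the highest scores were greater. The first, at 20248950 to 20251340, was 2391 bp wide with a score of 487.95, and lay 31.6 kb from the nearest H3K9me3 region. It was followed by 21020642 to 21022967 (353.39, 2.78 kb away), 22375054 to 22375570 (299.51, 41.7 kb away), 24466098 to 24467125 (283.56, 3.14 kb away) and 18032900 to 18034125 (274.94, 4.23 kb away).

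The bins with most KAP1 peaks differed in H3K9me3, some being poor and some rich in it. The highest bin of the rest of chromosome 12 held 11 KAP1 peaks. In the interval the bin from 20.2 to 20.3 Mb had most, 7 peaks over 74.8 kb. It had only 3 H3K9me3 regions, and 1 of the 7 peaks overlapped one. It includes the highest-scoring peak of the interval. A stretch from 24.2 to 24.6 Mb, singled out after the values were seen, includes the bin with most H3K9me3 regions. It held 15 peaks among 61 regions. Of these peaks 4 overlapped a region and the other 11 lay 0.266 to 19.0 kb from one. Just past the distal limit, from 25 to 25.2 Mb, a further 8 peaks stood with 16 H3K9me3 regions, and 6 of them overlapped one. By run, the share of KAP1 peaks with H3K9me3 was 25 of 46 (54.3%, interval 40.2 to 67.8) in the first, 4 of 7 in the second and 25 of 40 (62.5%, interval 47.0 to 75.8) in the third. Over the 70 bins of the interval the counts of both lists followed each other weakly (rho of 0.396 by Spearman and r of 0.251 by Pearson), a description only, since bins share libraries and neighbours.

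Another pair of H3K9me3-dense stretches was set beside the interval, picked with their density known. From 65 to 67 Mb on chromosome 13 there were 169.5 H3K9me3 regions per Mb, with a median width of 309 bp (interval 264 to 360) and a median spacing of 2.76 kb. There 17 of 339 regions (5.01%, interval 3.15 to 7.88) held KAP1, near the 4.80% of the interval on chromosome 12. From 22 to 23 Mb on chromosome 17 there were 87 regions per Mb, with a median width of 907 bp (interval 577 to 1866) and 26.1% of the length covered, against 8.21% in the interval. The share with KAP1 was 6 of 87 (6.90%, interval 3.199 to 14.2). Median width in the interval, 444 bp (interval 406 to 479), thus lay between that of the chromosome 13 and that of the chromosome 17 stretch, with no overlap of intervals. In the share of regions with KAP1 the 3 were not distinguishable at these counts.

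The numbers in the names of the calls show that both lists were filtered from longer ones. In the interval 834 of 920 numbered H3K9me3 calls were listed (90.7%, interval 88.6 to 92.4), against 85.0% (interval 83.1 to 86.8) in the rest of chromosome 12. For KAP1 it was 81 of 159 (50.9%, interval 43.2 to 58.6), against 53.0% (interval 50.3 to 55.6). What the filter was is not given in the sources used here.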

How the data were processed

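KAP1 and H3K9me3 were profiled by ChIP-seq in C2C12 myoblasts, 1 library each. Per the submitters' processing notes, the tools and builds include Bowtie2 2.2.1 and mm9. The authors deposited a list of positions with a score per call. Not given in the sources used here are the callers, their settings, any use of the no-antibody library and what either score measures; each score was used only within its own list. Positions are counted from 1. The length of a chromosome was counted from its first to its last call. Ratios of density carry exact intervals from the split of both counts, shares carry Wilson intervals, densities exact Poisson intervals and medians order-statistic intervals, all covering counting error only. No test between conditions was possible with 1 library per antibody. The functions were tested on simulated lists. Regions are named by rules of score, width or number of KAP1 peaks (the first 5 of each class), bins by count and empty stretches by length. The interval, the comparison stretches and these rules were chosen with earlier results of these data known. Alternatives were other overlap limits, the upper 50% by score, merged regions, other references and other bin rules. Gene and sequence annotation was not used, because the only gene and promoter tables at hand are of another build. Software was scipy 1.17.1, numpy 2.4.6, pandas 2.3.3 and matplotlib 3.10.9 under Python 3.11.15.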

Additional observations from a re-analysis of the deposited data

How the results depend on the processing

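Density, coverage and width ratios kept their side of 1 under every alternative run, while several sizes moved. The H3K9me3 density ratio was 7.83 against all other chromosomes, 7.24 over 100 kb bins with a call, 8.44 with regions within 1 kb merged and 9.89 in the upper 50% by score. For the first run of dense bins it was 13.4, but that run was drawn by its H3K9me3 count, so a ratio above 1 was set by the rule. The KAP1 density ratio was 1.21 over bins with a call. The ratio of KAP1 spacing, 1.02 (interval 0.386 to 1.57), did not keep its side of 1. It was 0.661 after merging, 0.775 in the upper 50% by score and 1.21 against all other chromosomes. The ratio of H3K9me3 spacing, 0.0748, was 0.107 against all other chromosomes and 0.111 after merging, and that of width was 0.887 after merging and 0.834 in the upper 50% by score. The start of the first run, 17.8 Mb, was 18.7 Mb with 50 kb bins or with bases covered, and its end, 21.1 Mb, was 25.2 Mb with 200 kb bins, which bridge longer breaks. The highest pair class reached 1.67 in the upper 50% by score, which has fewer pairs. The share of regions in matched runs was 32.7% within 50 bp, 0.959% for runs of 4, 0% with widths, 6.47% in inverted order (added after the data were seen) and 7.08% on chromosome 13. The share of H3K9me3 regions with KAP1 was 7.37% in the upper 50% of H3K9me3 by score (28.0% in the rest of chromosome 12), 2.16% with the upper 50% of KAP1 (11.7%) and 8.75% within 1 kb (20.4%). The share of KAP1 peaks with H3K9me3 was 34.6% against the upper 50% of H3K9me3 (37.2% in the rest) and 52.6% in the upper 50% of KAP1 (59.6%), so in both the interval no longer had the higher share. Beyond what each definition removes, the cause was not tested. In all, 38 values stayed within their interval, within 1 bin or within 1.5 times, those of KAP1 spacing among them. No paired analysis was possible because each antibody has a single library, so leaving out a replicate was not possible either. Unknown depth limits what a missing call can show.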
